A study of Homo sapiens with 8 samples.

Results

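Cells keep free iron within narrow limits largely through the translation and stability of a small set of mRNAs. These mRNAs carry an iron-responsive element (IRE), a short hairpin that iron regulatory proteins bind when iron is scarce. A hairpin before the coding sequence lets the bound protein block initiation, as in the ferritin mRNAs, whereas hairpins after the coding sequence let it shield the mRNA from decay, as in the transferrin receptor mRNA. When iron is plentiful the regulatory proteins let go or are degraded, ferritin is made and the receptor mRNA is lost.

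The genes described here are 9 members of this system, found by symbol among the 60651 genes of the deposited table: FTH1, FTL and SLC40A1 with a 5′ element, TFRC and SLC11A2 with 3′ elements, and the regulators ACO1, IREB2, FBXL5 and NCOA4. They were chosen by function, though with earlier results of these data known, and all 9 were found. Their ribosome footprint levels were measured in IMR32, an established human neuroblastoma line with amplified MYCN, labelled as wild type. In 4 libraries the cells had received CR31B, a synthetic relative of silvestrol, at a dose that the labels do not give, and in 4 libraries DMSO, at 0.1%. Treatment lasted 6 h, and cycloheximide, which stalls ribosomes in place, was given to both groups before harvest. CR31B belongs to the rocaglates, which clamp the helicase eIF4A onto purine-rich stretches of RNA and so hinder scanning through 5′ leaders. The comparison therefore asked whether mRNAs whose leaders hold a regulatory hairpin were loaded with ribosomes differently from mRNAs whose hairpins lie behind the coding sequence.

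The libraries listed from 17857 to 22270 genes above 0, and from 51.8% to 61.3% of their TPM (TPM is a share of a library scaled for transcript length and to a fixed sum) lay in protein-coding genes. Small nuclear RNAs held from 10.4% to 17.1%, and the highest gene alone held from 7.28% to 13.3%. TPM does not give the number of reads behind a value, so the counting error is unknown. No matched mRNA measurement was used here, so more mRNA and more ribosomes per mRNA cannot be told apart. The labels name 4 biological replicates without saying which cultures they came from, and p-values measure the spread between these libraries. Of 13 markers of adrenergic neuroblastoma 12 averaged 1 TPM or more, among them HAND2 at 226 TPM and MYCN at 742 TPM; TH was at 0.907 TPM. Summed markers of the erythroid lineage, which is rich in iron genes, reached no more than 0.200 TPM in any library, and HBA1 and HBB were listed at 0 in all of them. Summed mesenchymal or stromal markers ran from 127 to 161 TPM under CR31B and from 115 to 172 TPM with DMSO, mostly from VIM, and leukocyte and hepatocyte sums stayed at or below 0.340 TPM.

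The hairpins that define the 5′ and 3′ classes were located in GENCODE release 29 transcripts (GRCh38) and are shown because the comparison rests on them. The motif searched on the sense strand was a bulged C, then 5 bases, the loop CAGTGN and 5 bases that pair with the 5 before the loop, G-T pairs allowed, with at least 3 of 5 pairs in the stem below the bulged C. Capitals mark the loop that the regulatory proteins contact. In the leaders of the 5′ class the matches were:

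FTH1 (chr11:61967575-61967601, minus strand): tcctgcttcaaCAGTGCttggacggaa

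FTL (chr19:48965336-48965362, plus strand): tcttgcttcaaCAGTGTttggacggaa

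SLC40A1 (chr2:189580662-189580688, minus strand): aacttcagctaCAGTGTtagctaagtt

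The ferritin windows differed at 2 of 27 positions, C3T and C17T, counted from the 5′ end of the window with the FTH1 base first. The SLC40A1 window shared 13 of 27 positions with that of FTH1. The match lay in 5 of 6 coding transcripts of FTH1 and in the only complete coding transcript that the basic annotation holds for FTL and for SLC40A1. Of 19492 protein-coding genes, 11 or 0.0564% had such a match in a 5′ untranslated region. The matches in the 3′ untranslated region of TFRC, present in 3 of 3 coding transcripts, were, in their order along the mRNA:

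TFRC first (chr3:196050980-196051006, minus strand): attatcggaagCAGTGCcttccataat

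TFRC next (chr3:196050576-196050602, minus strand): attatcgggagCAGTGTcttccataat

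TFRC then (chr3:196050511-196050537, minus strand): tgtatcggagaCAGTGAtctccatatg

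TFRC last (chr3:196050464-196050490, minus strand): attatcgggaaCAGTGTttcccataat

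A match of this form in a 3′ untranslated region was found in 31 genes, or 0.159%. SLC11A2 had none in that form. With 1 further unpaired base allowed in the 3′ arm above the bulge, a form found in the 3′ region of 85 genes or 0.436%, it matched in 5 of its 11 coding transcripts, so the gene-level value below pools transcripts with and without the hairpin:

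SLC11A2 (chr12:50988269-50988296, minus strand): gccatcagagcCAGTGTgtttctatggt

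Under CR31B none of the tested iron genes, with a 5′ or a 3′ element or none, changed past the threshold. Of the 8 members that averaged 1 TPM or more, 0 had a limma adjusted p under 0.05, against 7.46% of the 11778 genes tested (3.45% higher and 4.02% lower), and 2 had an unadjusted p under 0.05, against 23.4%. SLC40A1 was too low to be tested. Above 0 were 5 of the 8 fold changes, with a median of 0.033 on the log2(TPM + 1) scale beside 0.029 for all genes tested. The 2 members with the lowest p-values were the regulators IREB2 and NCOA4, both with higher mean values in CR31B. With the replicate number as a block, which raised the calls over all genes from 879 to 1453, still 0 of the 8 members passed.

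**Figure D1:**
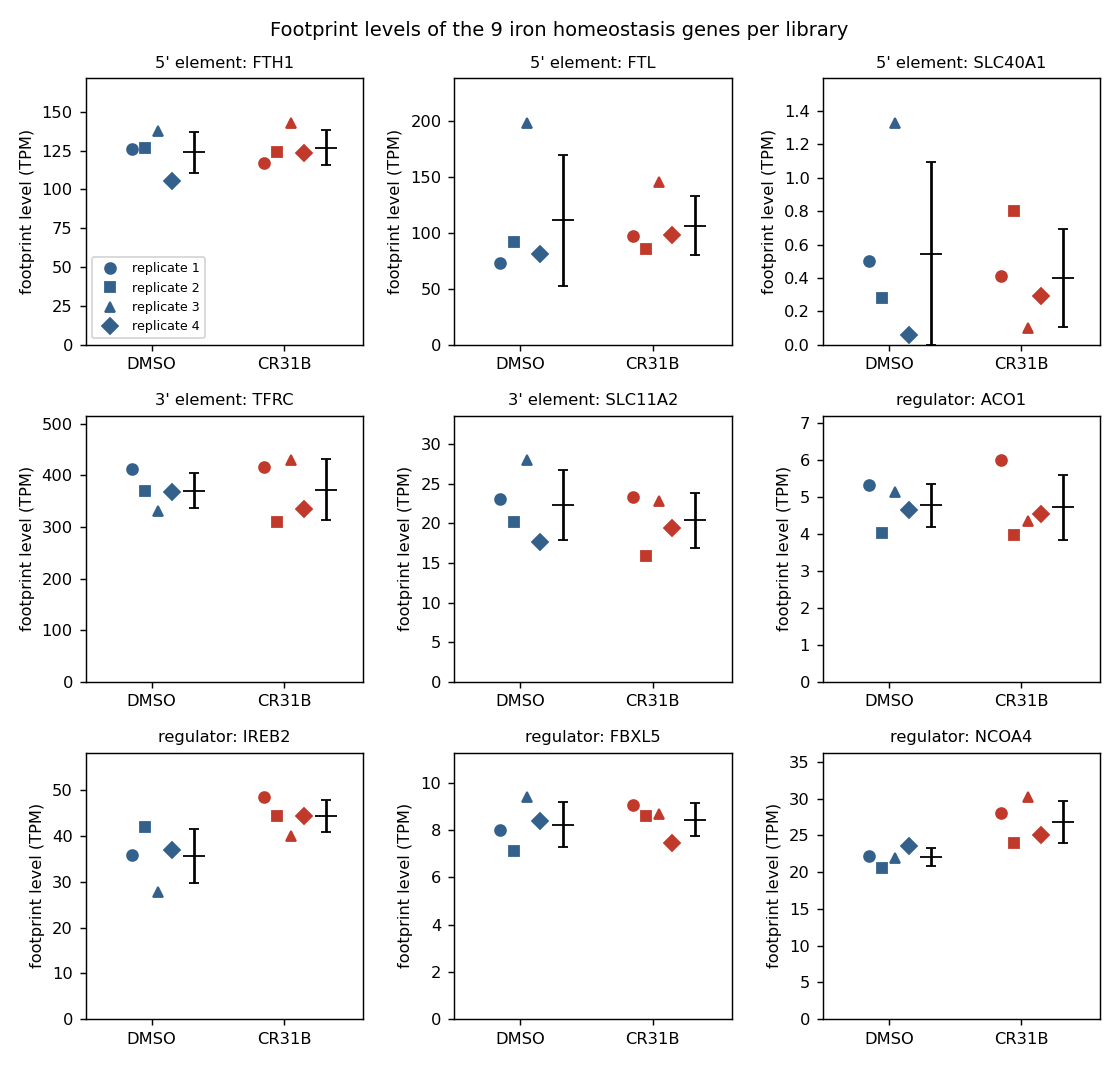
Footprint level in TPM (y axis, from 0, a separate scale per gene) of the 9 iron homeostasis genes in the 4 DMSO (blue) and 4 CR31B (red) libraries; symbols give the replicate number, and black marks give the mean with the SD, cut at 0 for SLC40A1 in DMSO. The groups overlap in every panel except NCOA4, where the lowest CR31B library, at 24.02 TPM, lies just above the highest DMSO library, at 23.63 TPM.

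FTH1 (ENSG00000167996.16, chr11:61959718-61967660) encodes the ferritin heavy chain, whose ferroxidase centre oxidises iron for storage. It stood at 117.13, 124.45, 142.98 and 123.55 TPM in the treated libraries, replicates 1 to 4, and at 125.78, 126.87, 137.46 and 105.37 TPM in the controls, in the same order as for all genes below. Replicate 3 was the highest in both groups and the ranges overlapped. The log2 fold change was 0.039 (SE 0.12, adjusted p 0.885 in limma), with a 95% confidence interval of the ratio from 0.857 to 1.23. A fall in FTH1's share of the library to below 0.857 of the control was thus outside the interval. A fall common to most genes would not show in TPM, so the interval does not bound the absolute number of FTH1 footprints. FTH1 exons overlap BEST1 on the opposite strand, which was listed at no more than 0.170 TPM.

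FTL (ENSG00000087086.15, chr19:48965301-48966878) encodes the light chain, which lacks the ferroxidase centre and favours mineral formation inside the ferritin shell. Its levels were 97.28, 85.93, 145.42 and 97.93 TPM under CR31B and 73.12, 92.03, 198.56 and 81.48 TPM with DMSO. Again replicate 3 was the highest of both groups, and in DMSO it lay far above the other 3 libraries. The log2 fold change was 0.031 (SE 0.29, adjusted p 0.962 in limma), and the interval of the ratio, from 0.656 to 1.59, was the widest of the 8 members. Without DMSO replicate 3 the log2 fold change was 0.35 (adjusted p 0.291 in limma). Copies of the ferritin genes added little, since 25 FTH1 pseudogenes summed to at most 1.28 TPM and 16 FTL pseudogenes to at most 0.170 TPM in any library, although reads that fit both copy and parent may have been assigned to either.

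SLC40A1 (ENSG00000138449.11, chr2:189560579-189583758) encodes ferroportin, the exporter that carries iron out of the cell. It was near the floor in every library, at 0.410, 0.800, 0.100 and 0.290 TPM under CR31B and 0.500, 0.280, 1.33 and 0.0600 TPM with DMSO. The DMSO libraries spanned the whole range of the CR31B libraries, and no difference could be assessed at this level. Fitted without the filter on low genes, it had a log2 fold change of -0.099 (adjusted p 0.862 in limma).

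Among the 3′ class, TFRC (ENSG00000072274.13, chr3:196027183-196082189), the receptor that takes up transferrin-bound iron, had the highest footprint level of the 9 genes and stood above 97.0% of all genes tested. It was at 415.4, 308.79, 429.84 and 335.09 TPM under CR31B and at 413.12, 368.8, 331.3 and 367.42 TPM with DMSO. The CR31B libraries lay on both sides of the DMSO range. Its log2 fold change was -0.0013 (SE 0.14, adjusted p 0.995 in limma), with a ratio between 0.808 and 1.24.

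SLC11A2 (ENSG00000110911.17, chr12:50979401-51028566) encodes DMT1, which moves ferrous iron across the plasma and endosomal membranes. Levels were 23.4, 15.84, 22.83 and 19.46 TPM under CR31B and 23.15, 20.23, 28.03 and 17.72 TPM with DMSO, with overlapping ranges. The log2 fold change was -0.12 (SE 0.17, adjusted p 0.723 in limma), and the ratio's interval ran from 0.712 to 1.19.

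**Figure D2:**
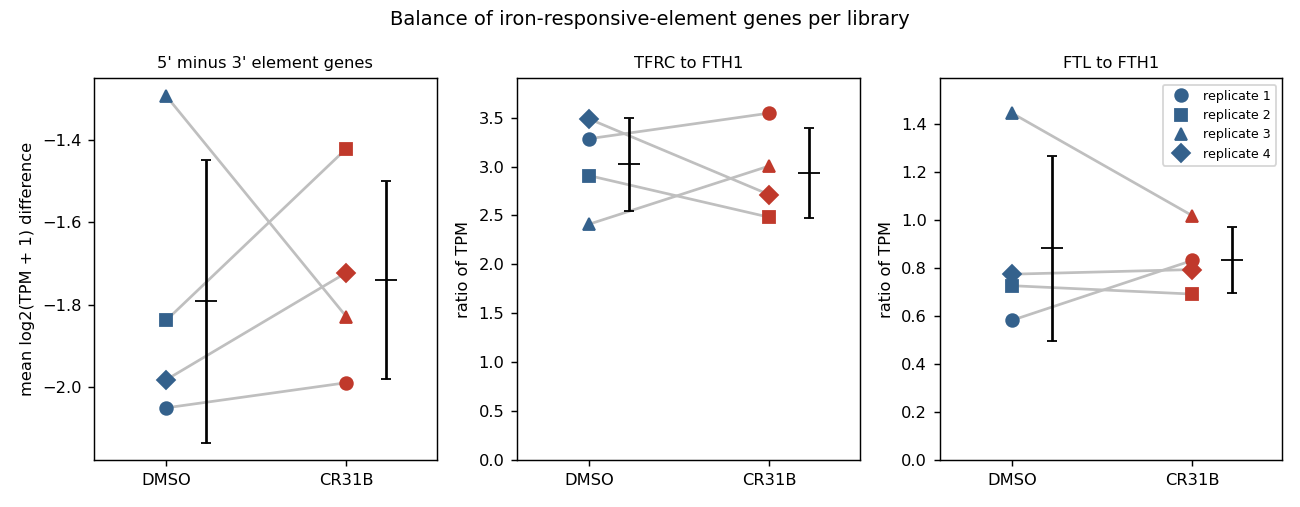
Per library, mean log2(TPM + 1) of FTH1, FTL and SLC40A1 minus that of TFRC and SLC11A2 (left, axis not from 0), the TFRC to FTH1 ratio of TPM (middle) and the FTL to FTH1 ratio of TPM (right); lines join libraries of the same replicate number, and black marks give the mean with the SD. In each panel the CR31B and DMSO libraries overlap, and the lines run in both directions.

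Set against each other within a library, the 5′ class minus the 3′ class stood at -1.99, -1.42, -1.83 and -1.72 in CR31B and at -2.05, -1.84, -1.29 and -1.98 in DMSO, as differences of mean log2(TPM + 1). The CR31B values lay inside the DMSO range. The means were -1.74 ± 0.24 and -1.79 ± 0.34 (SD, n = 4 each), a difference of 0.050 against an SD between libraries of 0.30. No test was made of this score, because its members were chosen. Leaving out SLC40A1 gave a difference of 0.095 and FTH1 minus TFRC alone one of 0.040. Between libraries left out in turn it ran from -0.056, without CR31B replicate 2, to 0.22, without DMSO replicate 3, so that its sign rested on single libraries.

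The balance of receptor to storage protein was also similar in size in both groups. The TPM of TFRC exceeded that of FTH1 in every library, by a ratio of 2.94 ± 0.46 under CR31B and 3.02 ± 0.47 with DMSO (SD, n = 4 each). TPM is scaled for transcript length, so this is not a ratio of footprint counts. Within ferritin, the light to heavy chain ratio of TPM was 0.833 ± 0.136 under CR31B and 0.881 ± 0.384 with DMSO. Only in replicate 3 of both groups did the light chain exceed the heavy chain, at ratios of 1.02 in CR31B and 1.44 in DMSO.

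The regulators come next. ACO1 (ENSG00000122729.19, chr9:32384603-32454769) encodes IRP1, which is a cytosolic aconitase while it holds an iron-sulfur cluster and an IRE-binding protein without it. It was at 5.99, 3.96, 4.34 and 4.54 TPM under CR31B and at 5.3, 4.01, 5.12 and 4.64 TPM with DMSO. The DMSO range fell within the CR31B range, and the log2 fold change was -0.022 (SE 0.15, adjusted p 0.950 in limma).

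IREB2 (ENSG00000136381.13, chr15:78437431-78501456) encodes IRP2, the IRE-binding protein that is controlled by its degradation. Its levels were 48.54, 44.34, 39.99 and 44.37 TPM under CR31B and 35.81, 41.97, 27.71 and 36.87 TPM with DMSO. CR31B was higher in 4 of 4 replicate pairs, as it was for 20.1% of all genes tested, but its replicate 3 lay below DMSO replicate 2. This gave a log2 fold change of 0.32 ± 0.14 (SE, with a 95% interval from 0.019 to 0.62 and p 0.0393 in limma before adjustment and 0.187 after it), and the exact permutation p was 0.0571. The replicate block gave an adjusted p of 0.0866 in limma, and without DMSO replicate 3, the lowest library, the log2 fold change was 0.21. Over 19 alternatives the limma adjusted p ran from 0.0806 to 0.337.

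FBXL5 (ENSG00000118564.15, chr4:15604539-15681679) encodes the iron-sensing subunit of the ubiquitin ligase that marks IRP2 for degradation when iron is plentiful. Values of 9.05, 8.59, 8.7 and 7.44 TPM under CR31B and 8.01, 7.13, 9.4 and 8.39 TPM with DMSO overlapped throughout, with a log2 fold change of 0.035 (SE 0.12, adjusted p 0.901 in limma). Its exons overlap FAM200B on the opposite strand, which was listed at 2.75 to 9.33 TPM. The strand setting is not given in the sources used here, so the FBXL5 values are uncertain.

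NCOA4 (ENSG00000266412.6, chr10:46005088-46030714) encodes the receptor that delivers ferritin to autophagosomes, from which its iron is released. It was at 28.01, 24.02, 30.23 and 25.01 TPM under CR31B and at 22.18, 20.58, 21.89 and 23.63 TPM with DMSO. All CR31B libraries lay above all DMSO libraries, by a margin smaller than the spread within either group. NCOA4 was the only member of the 9 so separated, where 16.2% of all genes tested were separated in either direction and 8.07% with CR31B the higher. NCOA4 had a log2 fold change of 0.27 ± 0.11 (SE, with a 95% interval from 0.018 to 0.51 and p 0.0380 in limma before adjustment and 0.183 after it), with an exact permutation p of 0.0286, the smallest that 4 against 4 libraries allow. The replicate block gave an adjusted p of 0.126 in limma, and over 19 alternatives it ran from 0.106 to 0.354.

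**Figure D3:**
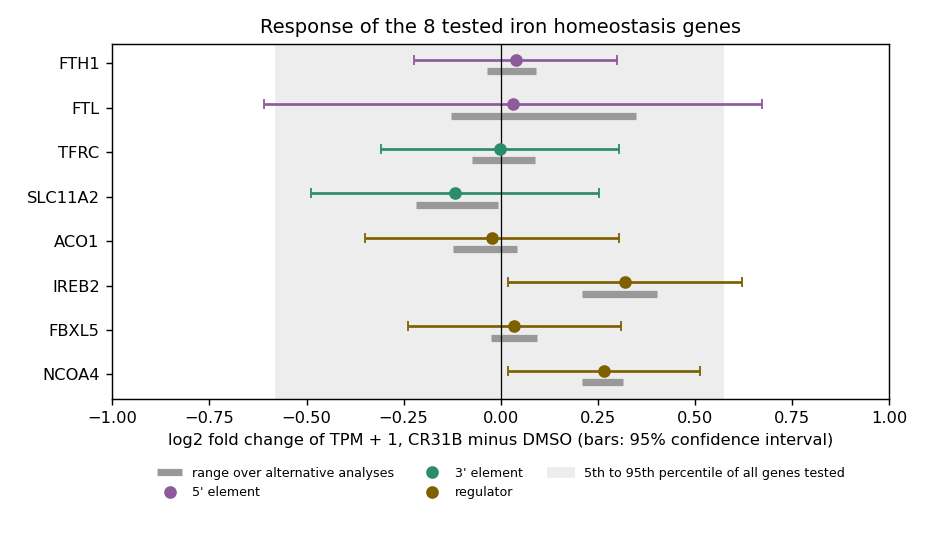
Log2 fold change of TPM + 1 (x axis, CR31B minus DMSO) of the 8 tested iron homeostasis genes, as points with 95% confidence intervals coloured by class; grey bars give the range over the alternative analyses and the shaded band the 5th to 95th percentile of all genes tested, from -0.58 to 0.57. IREB2 and NCOA4 are the only members whose intervals leave out 0, and none passed after adjustment.

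In relation to each other, the levels fell in the order TFRC (371.2 TPM over the 8 libraries), FTH1 (125.4 TPM), FTL (109.0 TPM), IREB2 (39.95 TPM), NCOA4 (24.44 TPM), SLC11A2 (21.33 TPM), FBXL5 (8.34 TPM), ACO1 (4.74 TPM) and SLC40A1 (0.471 TPM). FTH1 exceeded FTL in 6 of 8 libraries and NCOA4 exceeded SLC11A2 in 6 of 8, and the ranges of both pairs overlapped. IREB2 and NCOA4 also overlapped in range although IREB2 was the higher in 8 of 8 libraries. All other neighbours in this order were separate in every library. TPM is scaled for transcript length, and the coding part of the main transcript differed between members. It was 1950 of 2307 nt for NCOA4 and 1683 of 4164 nt for SLC11A2. The order and the ratios between genes therefore depend on this scaling and could differ per coding length. The TPM of IREB2 exceeded that of ACO1 by a ratio of 9.57 ± 1.29 under CR31B and 7.65 ± 2.15 with DMSO (SD, n = 4 each). This ratio was higher in CR31B in 4 of 4 pairs, with overlapping groups.

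Leaders of the members differed in the features that rocaglates are known to respond to. The longest run of purines in the 5′ untranslated region of the main transcript was 6 bases for FTH1, 5 for FTL and 6 for TFRC, against a median of 8 and a 5th to 95th percentile range of 4 to 17 over 9871 tested genes. IREB2, FBXL5 and NCOA4 had runs of 7, ACO1 one of 9 and SLC11A2 one of 13. SLC40A1 stood apart with a run of 21 bases, but its level was too low to test. The leaders of FTH1 and FTL were 235 and 207 nt long, close to the median of 205 nt, and 40.0% and 35.3% of their bases were purines (median 50.9%). IREB2 had the lowest share, 26.9%, and both IREB2 and FTL lay below the 5th percentile of 38.0%.

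The genes whose values followed FTH1 most closely over the 8 libraries, among 5613 genes averaging 10 TPM or more, were XRCC1 (Pearson's r of 0.970), TRIM69 (0.928) and SCARNA11 (0.917). SCARNA11 is a small noncoding RNA, so its value is not a level of translation. TFRC was followed most closely by SMARCAD1 (0.962), CLCC1 (0.957) and AFDN (0.953). These are descriptions of 8 shared libraries and carry no test.

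The wider iron network was read from 6 lists of 110 genes, of which 88 were tested. In these lists 2 genes rose and 2 fell, or 4.55% of those tested against 7.46% of all genes (3.45% rose and 4.02% fell), and 9 passed with the replicate block. Among other IRE mRNAs 0 of 4 tested genes passed in limma, and 1 passed with quantile normalization, with median centring and with no variance trend. EPAS1 and ALAS2 were below the filter. CDC42BPA is known for a 3′ element but had no match of the form first searched above. It was at 2.46 ± 0.299 TPM under CR31B and 3.89 ± 0.478 TPM with DMSO, without overlap (SD, n = 4 each, log2 fold change -0.50, adjusted p 0.0517 in limma).

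Of 13 tested genes of iron uptake and transport 1 rose, where 3.45% of all genes tested did. It was SLC25A37, which encodes mitoferrin, the importer of iron into mitochondria. SLC25A37 stood at 10.59, 13.06, 11.97 and 11.69 TPM under CR31B and at 6.28, 7.13, 8.63 and 9.01 TPM with DMSO. Every CR31B library was above every DMSO library, with a log2 fold change of 0.56 (SE 0.14, adjusted p 0.0338 in limma), but the call was lost in 9 of 18 alternatives, where the adjusted p reached 0.0961. Among them were those without replicate 2, 3 or 4 of CR31B (adjusted p 0.0745, 0.0668 and 0.0771 in limma) and without replicate 1, 2 or 4 of DMSO (0.0961, 0.0951 and 0.0535). The list's median log2 fold change was 0.20, and it was 0.018 when unfiltered low genes were included. The iron chaperones PCBP1 and PCBP2, which hand iron to ferritin, had log2 fold changes of 0.20 and -0.27 (adjusted p 0.467 in limma and 0.315).

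Iron-sulfur cluster assembly had 1 rise among 28 tested genes, where 3.45% of all genes tested rose. BOLA3, which helps to pass clusters to mitochondrial enzymes, was at 50.46, 51.28, 50.41 and 47.09 TPM under CR31B and at 31.6, 39.3, 31.43 and 29.8 TPM with DMSO. The groups were well apart, with a log2 fold change of 0.59 (SE 0.11, adjusted p 0.0134 in limma), and the call was lost in 1 of 19 alternatives, without DMSO replicate 4 (adjusted p of 0.0529). In that list 21 of 28 fold changes were above 0, against 54.1% of all genes tested, with a median of 0.18 and a range of 0.12 to 0.26 over the alternatives. CIAO1 and GFER, which act in the cytosolic branch of assembly and in mitochondrial export, had log2 fold changes of 0.50 and 0.44 with adjusted p 0.0611 and 0.0570 in limma. CIAO1 passed in 5 of 19 alternatives and GFER in 3 of 19, the replicate block (0.0428 and 0.0465) and scaling over protein-coding genes (0.0374 and 0.0364) among them. Leaving out DMSO replicate 3 gave CIAO1 an adjusted p of 0.0404. The scaffold ISCU was at a log2 fold change of 0.29 (adjusted p 0.431 in limma).

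Heme synthesis and breakdown had 0 of 17 tested genes past the threshold, against 7.46% of all genes tested, and a median of -0.043. ALAS1, the rate-limiting enzyme of heme synthesis outside red cells, was at 14.34 ± 1.89 TPM under CR31B and 13.59 ± 2.01 TPM with DMSO (SD, n = 4 each). FLVCR1, a transporter known for heme and choline, and ABCB6, a porphyrin transporter, had log2 fold changes of -0.50 and -0.38 (adjusted p 0.100 in limma and 0.214). Both passed with the replicate block (0.0280 and 0.0429), ABCB6 in no other alternative and FLVCR1 also with quantile normalization (0.0347) and median centring (0.0355). HMOX1, which frees iron from heme, had a log2 fold change of -0.22 (adjusted p 0.739 in limma). The partners of FBXL5 and NCOA4 also had 0 of 10 past the threshold. HERC2, a ubiquitin ligase that degrades NCOA4, was at 14.34 ± 4.60 and 9.78 ± 2.24 TPM with overlap (SD, n = 4 each; log2 fold change 0.49, adjusted p 0.209 in limma).

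Ferritin and ferroportin genes are also targets of NRF2, the transcription factor of the antioxidant response. Of 17 tested NRF2 targets 2 fell, where 4.02% of all genes tested did. These 2 were GCLM and GCLC, the modifier and catalytic subunits of the enzyme that limits glutathione synthesis. GCLM went from 11.36, 11.49, 14.68 and 14.17 TPM with DMSO to 7.68, 7.47, 6.55 and 7.51 TPM under CR31B, a log2 fold change of -0.74 (SE 0.13, adjusted p 0.00789 in limma) that passed in 19 of 19 alternatives. GCLC went from 13.67, 14.48, 15.5 and 22.23 TPM to 11.14, 9.07, 8.62 and 10.22 TPM, a log2 fold change of -0.68 (SE 0.16, adjusted p 0.0299 in limma), with the call lost in 6 of 19 alternatives. These were no filter (adjusted p 0.0937 in limma), without replicate 2, 3 or 4 of CR31B (0.0636, 0.0675 and 0.0638) and without replicate 2 or 4 of DMSO (0.0541 and 0.0685). For both subunits all CR31B libraries lay below all DMSO libraries. TXNRD1, a thioredoxin reductase, had a log2 fold change of -0.39 and passed only with the replicate block (adjusted p 0.0411 in limma, against 0.103). The list's median was -0.033, with 6 of 17 above 0, against 54.1% of all genes tested. NQO1, a standard NRF2 target, was at -0.0064 (adjusted p 0.986 in limma).

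**Figure D4:**
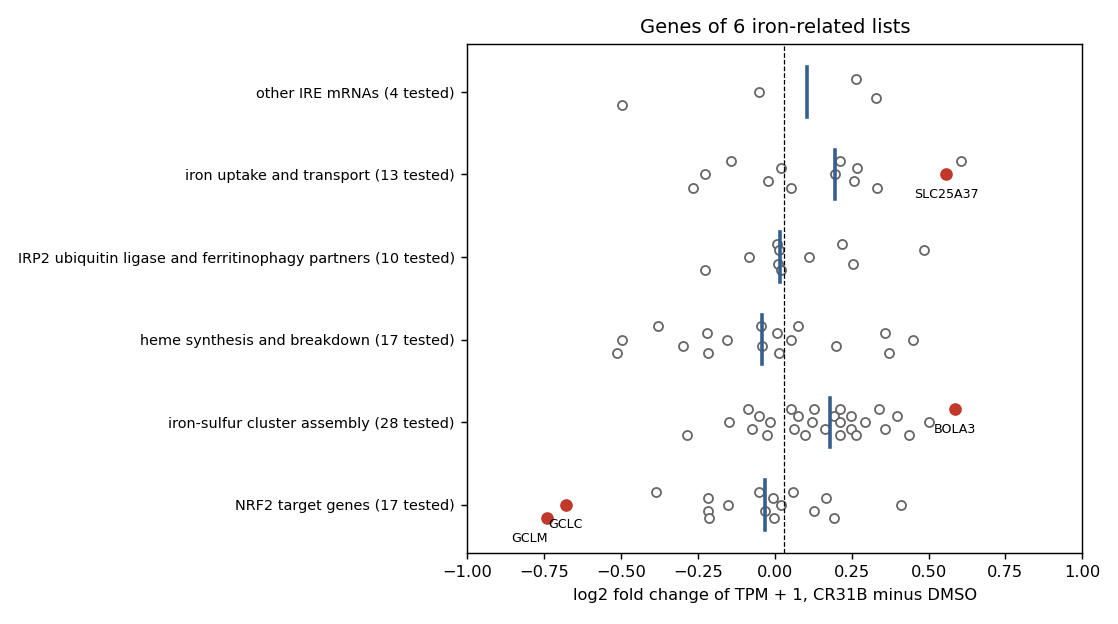
Log2 fold change of TPM + 1 (x axis, CR31B minus DMSO) of the tested genes of 6 iron-related lists; filled red points had a limma adjusted p under 0.05, open points did not, blue bars mark each list's median and the dashed line the median of all genes tested, 0.029. The passing genes are SLC25A37 and BOLA3 on the right and GCLC and GCLM on the left.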

How the data were processed

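Ribosome-protected fragments were sequenced from 8 IMR32 libraries. The authors deposited 1 table of TPM for 60651 genes. The submitters' processing notes name cutadapt 3.2, Bowtie2 2.3.4.1, STAR 2.7.1a and RSEM 1.2.28 with build hg38/GRCh38, without roles. The annotation release, strand setting and treatment of multi-mapping reads are not given in the sources used here. TPM forces a fixed sum on each library, so a rise in some RNAs lowers the rest, and depth is not recoverable from it. Columns were matched to libraries by description, with 0 left over. Symbols were found for 60481 identifiers, and GENCODE release 29 (GRCh38) gave gene types for 58405, positions and transcript sequences. Some genes of the lists are not reported here. RefSeq promoters and miRNAs were not used, and protein sequences were not used here.

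Values were analysed as log2(TPM + 1) for genes averaging 1 TPM or more over the 8 libraries, with limma 3.58.1 in R 4.3.3 (eBayes with its trend option), treatment as the only term and Benjamini-Hochberg adjustment over all 11778 genes tested. Fold changes on this scale understate the change of low genes. The fit was also run on simulated data with independent noise, without shared deviations of replicates. The planted changes were larger than the estimate of any member, so that run does not speak to changes of the members' size. Single values also got an exact permutation test, two-sided, over the 70 ways to assign 4 and 4 libraries. It ignores the replicate number, and any gene whose groups do not overlap gets its smallest possible p. Other steps used Python 3.11.15 with pandas 2.3.3.

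Libraries with the same replicate number deviated together after removal of group means (r across genes from 0.105 to 0.333, against -0.206 to 0.134 for other pairs), so a second fit took the replicate number as a block, and pairs are compared in the text. Other alternatives changed the pseudocount, the filter, the scaling and the variance model, added ferritin pseudogenes to their parents or left out each library in turn.

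Members and lists were chosen with earlier results of these data known. Beside the 9 members, the rule named up to 2 called rises and 2 called falls per list and the 3 genes most like FTH1 and TFRC. Chosen with their values in view were also the list genes that passed with the block and not in the main analysis, other list genes given with their values, and ENC1, PRPF18, VGLL4 and UBLCP1 in the closing section. The hairpin with an extra unpaired base was also searched after the first form gave no match in SLC11A2.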

Additional observations from a re-analysis of the deposited data

Results flagged for a closer look

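FTL in DMSO replicate 3 stood far from the other libraries of its group, at 198.6 TPM against 73.12 to 92.03 TPM, a gap of 0.849 of the group's range. Of 44 groups of 4 libraries examined in this way 1 was singled out, where chance gives about 2.2. The CR31B library with the same replicate number was also the highest of its group, at 145.42 TPM. Without DMSO replicate 3 the FTL log2 fold change was 0.35 in place of 0.031, with a limma adjusted p of 0.291.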

How the results depend on the processing

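Of the members fitted, 0 passed in any of the 19 alternatives; ACO1 and FBXL5 were fitted in 18 of them and SLC40A1 in 1. Calls over all genes were 406 higher and 473 lower, 662 and 565 with scaling over protein-coding genes, 487 and 687 with quantile normalization and 443 and 734 with median centring. Counts over all genes, 879 in the main analysis, were 1453 with the replicate block and 442 with no filter, and ran from 404 (without DMSO replicate 4) to 785 when a library was left out, with 516 without CR31B replicate 4, 502 without DMSO replicate 1 and 514 without DMSO replicate 2. Calls in the iron lists, 4 in the main analysis, were 9 with the replicate block, 2 with no filter, and from 1 (without DMSO replicate 4) to 5 when a library was left out, with 2 without CR31B replicate 2, 3 or 4 or DMSO replicate 2. The difference between the 5′ and 3′ classes was 0.0504 with and without the replicate block. Among the genes named in the text, the block changed no other call than those of the 5 list genes given above and VGLL4. Fold changes near 0 turned sign without passing the test, and these turns show no more than that the estimates lie near 0. Median centring gave -0.0054 for FTH1, -0.013 for FTL and -0.0087 for FBXL5. Quantile normalization gave 0.087 for TFRC and -0.013 for FBXL5. Scaling over protein-coding genes gave 0.033 for TFRC and 0.0060 for ACO1, and scaling without small nuclear, ribosomal protein and mitochondrial genes gave 0.0024 for TFRC. With a library left out, log2 fold changes ran from -0.036 to 0.091 for FTH1, -0.13 to 0.35 for FTL, -0.075 to 0.084 for TFRC, -0.12 to 0.042 for ACO1 and -0.024 to 0.094 for FBXL5. IREB2, NCOA4 and SLC11A2 kept their sign in all 19. The cause of these changes was not tested. The quantile value of the class difference left out SLC40A1, which is below the filter.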

Other observations

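The canonical hairpin search reached beyond the genes known for it. Of 11 genes with a match in a 5′ untranslated region 5 were tested, and 1 of these rose, where 3.45% of all genes tested did: ENC1, an actin-binding protein of neurons, went from 6.61, 5.35, 8.74 and 7.8 TPM with DMSO to 11.12, 11.63, 13.72 and 10.42 TPM under CR31B, with no overlap (log2 fold change 0.66, SE 0.16, adjusted p 0.0299 in limma). That call was lost in 8 of 18 alternatives, where the adjusted p reached 0.0879. They were no filter and every library left out except DMSO replicate 3. The strand setting is not given in the sources used here, so the ENC1 values are uncertain. PRPF18, a splicing factor, also had a match and did not overlap between groups, at 57.2 ± 6.30 TPM under CR31B and 47.2 ± 3.29 TPM with DMSO (SD, n = 4 each; adjusted p 0.189 in limma). Over all genes tested, 8.07% did not overlap with CR31B the higher.

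Of 31 genes with a match in a 3′ untranslated region 25 were tested, and 0 had a limma adjusted p under 0.05, against 7.46% of all genes tested. Their median log2 fold change was -0.0013, and 12 were above 0, against 54.1% of all genes tested. VGLL4, a transcription cofactor, was at 17.26, 10.52, 15.13 and 9.83 TPM under CR31B and at 22.51, 19.26, 23.86 and 17.33 TPM with DMSO. Its groups did not overlap (log2 fold change -0.64, adjusted p 0.0620 in limma), and it passed in 6 of 19 alternatives. These were the replicate block (0.0145), a mean of at least 10 TPM (0.0483), scaling over protein-coding genes (0.0386), quantile normalization (0.0278), median centring (0.0261) and without CR31B replicate 1 (0.0334). VGLL4 exons overlap ATG7 on the opposite strand, at 7.51 to 16.3 TPM. UBLCP1, a phosphatase of the proteasome, was the other gene of these 25 whose groups did not overlap, in the other direction, at 9.54 ± 1.43 TPM under CR31B and 6.99 ± 0.974 TPM with DMSO (SD, n = 4 each; log2 fold change 0.40, adjusted p 0.121 in limma and 0.0679 with the replicate block). Over all genes tested, 16.2% did not overlap between the groups in either direction. ENC1, PRPF18, VGLL4 and UBLCP1 were named after their values were seen, and a sequence match does not show that any of these mRNAs is bound by an iron regulatory protein.

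IREB2 itself had a match to the form with an extra unpaired base, in the 3′ untranslated region of 1 of its 2 coding transcripts.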
